A study of Mus musculus with 8 samples.

Results

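The genes for 5 subunits of the transcription factor AP-1 (Fos, Jun, Junb, Fosl1 and Fosl2) and for the ERK phosphatase DUSP6 were examined in melan-Ink4a-Arf-1 (melan-a), a mouse melanocyte line from embryonic skin that carries the Cdkn2a allele tm1RDp on both copies. Members were all deposited peaks within 50 kb of 6 gene spans on the mm9 build. The spans were chr12:86814000-86819000 for Fos, chr19:5447000-5456000 for Fosl1, chr5:32438000-32461000 for Fosl2, chr4:94715000-94719000 for Jun, chr8:87500000-87503000 for Junb and chr10:98725000-98730000 for Dusp6. They held 391 of the 311378 peaks in 6 chromatin immunoprecipitation sequencing (ChIP-seq) lists, 2 each for SOX10, H3K27ac and H3K27me3. The cells behind every library grew in medium with 200 nM of the phorbol ester TPA and 200 pM cholera toxin. There were no cells without TPA, so marks that TPA brings about and marks that are there without it cannot be told apart.

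AP-1 is a dimer of a JUN protein with a second JUN or a FOS protein that binds the TPA response element in DNA. TPA stands in for the lipid second messenger diacylglycerol, activates protein kinase C and through it the ERK kinases, which switch on Fos and Jun within minutes in many cell types. Mouse melanocytes are commonly kept in TPA because it sustains their growth. DUSP6 removes the activating phosphates from ERK in the cytoplasm and is itself induced by ERK signalling, so that it acts as negative feedback. SOX10 is a neural crest transcription factor that the melanocyte lineage needs, and the study's title asks how it acts on its target genes. Histone H3 is acetylated at lysine 27 (H3K27ac) at enhancers and promoters in use, and trimethylated there (H3K27me3) in chromatin repressed by Polycomb.

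The 2 libraries of an antibody came from independent experiments on this line, per the labels' protocols. The SOX10 libraries kept 6440395 and 8985699 tags, those of H3K27ac 45583056 and 44416913, and those of H3K27me3 67060647 and 71987481. The lists held 6409 to 79632 peaks. The SOX10 libraries are thus the shallowest, and from a peak missing there absence of binding cannot be inferred. In bulk chromatin, more cells with a mark and more of the mark per cell cannot be told apart. Melanocyte marker loci were not used here, because gene positions on mm9 were not among the sources used, and for the same reason other genes of the pathway were not used here. With 2 libraries per antibody no test could pass its threshold, and values are given per library. A consensus region below is a stretch covered by overlapping peaks (at least 1 bp) with at least 1 from each library, and a fold is the authors' enrichment of the peak over their input background.

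RefSeq promoters were matched for 5 of the 6 members and are shown because each of these members had an H3K27ac consensus region over its gene span. The promoters themselves were not placed on mm9, so whether these bases were acetylated was not tested. Each line gives the 250 bases before the annotated start on the gene's own strand, 5′ to 3′, from the GRCm38.p6 build. Capitals mark matches to the motifs searched on both strands.
Fos (chr12:85473640-85473889, plus strand): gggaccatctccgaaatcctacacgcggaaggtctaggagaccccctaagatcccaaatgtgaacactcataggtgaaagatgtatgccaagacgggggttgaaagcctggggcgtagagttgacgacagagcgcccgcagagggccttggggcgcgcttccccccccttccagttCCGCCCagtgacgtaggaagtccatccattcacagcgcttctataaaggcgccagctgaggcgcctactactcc
Fosl2 (chr5:32136222-32136471, plus strand): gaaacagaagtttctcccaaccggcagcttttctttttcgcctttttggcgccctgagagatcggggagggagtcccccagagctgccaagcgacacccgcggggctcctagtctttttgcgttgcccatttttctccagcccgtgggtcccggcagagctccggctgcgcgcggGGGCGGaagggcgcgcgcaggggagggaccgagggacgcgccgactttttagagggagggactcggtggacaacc
Jun (chr4:95052223-95052472, minus strand): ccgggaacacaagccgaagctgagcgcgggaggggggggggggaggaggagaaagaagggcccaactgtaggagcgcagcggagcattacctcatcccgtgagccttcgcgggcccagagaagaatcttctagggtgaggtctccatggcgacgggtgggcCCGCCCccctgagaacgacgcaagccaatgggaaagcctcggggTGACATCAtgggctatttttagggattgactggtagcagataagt
Junb (chr8:84978749-84978998, minus strand): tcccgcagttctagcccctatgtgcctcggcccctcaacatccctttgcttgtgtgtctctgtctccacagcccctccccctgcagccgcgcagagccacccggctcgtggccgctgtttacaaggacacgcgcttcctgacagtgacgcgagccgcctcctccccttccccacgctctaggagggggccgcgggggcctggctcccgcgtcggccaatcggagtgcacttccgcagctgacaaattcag
Dusp6 (chr10:99262981-99263230, plus strand): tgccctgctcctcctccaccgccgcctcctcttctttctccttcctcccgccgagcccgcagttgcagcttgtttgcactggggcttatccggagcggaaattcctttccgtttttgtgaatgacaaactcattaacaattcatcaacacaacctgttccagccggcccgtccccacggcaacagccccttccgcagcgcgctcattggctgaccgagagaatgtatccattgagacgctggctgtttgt

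Jun held the only AP-1 type match of these 5 promoters, the variant TPA response element TGACATCA, 45 to 38 bases before the start. That motif was in 2.93% of 32851 mouse promoters of the same length. GGGCGG, the core of an SP1 site, was in Fos, Fosl2 and Jun, at 74 to 69, 75 to 70 and 89 to 84 bases before the start, and in 32.7% of all promoters. The other motifs had no match in these 5 windows: TGACTCA (in 4.46% of all promoters), TGACGTCA (1.55%), the ETS motif TTCCGG (12.0%), the SOX motifs ACAAAG (16.5%) and ACAATG (10.7%), the E-boxes CACGTG (6.02%) and CATGTG (12.3%) and the CArG box of serum response factor (1.47%). No match overlapped another. G and C made up 56.4% of the Dusp6 window and 58.4 to 66.4% of the other 4, against a median of 52.4% over all promoters. By strand, the start lies towards the lower end of the span for Fos, Fosl2 and Dusp6 and towards the upper end for Jun and Junb.

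H3K27ac was present over all 6 gene spans in both libraries, and its extent differed widely between loci. Fosl1 held 50 and 56 H3K27ac peaks in replicates 1 and 2, Dusp6 41 and 38, Junb 25 and 26, Fos 22 and 13, Fosl2 13 and 11, and Jun 3 and 2. Together these made 79 consensus regions of 36655 in the genome, 29 at Fosl1, 20 at Dusp6, 15 at Junb, 7 at Fosl2, 6 at Fos and 2 at Jun. This order depends on how finely peaks are split: with regions less than 1 kb apart merged, Dusp6 had 9, Fosl1 7, Fos 5, Junb and Fosl2 4 each and Jun 1. Of all end-to-end genome tiles as long as the locus window, 0.546% held as many H3K27ac regions as Fosl1, 1.34% as many as Dusp6 and 2.40% as many as Junb. The share was 8.06% for Fos, 8.13% for Fosl2 and 18.8% for Jun, and 73.9% of the tiles of Dusp6's length held none. By the RefSeq annotation, 11 other protein-coding genes lie within 50 kb of Fosl1 (among them Drap1, Mus81 and Cfl1) and 8 within 50 kb of Junb (among them Prdx2 and Hook2), while the other 4 loci have none. These distances were taken on the RefSeq build around the annotated gene, and the neighbours were not placed on mm9. Acetylation of those neighbours can count in these windows, and its part in the order of the loci was not tested.

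Peaks of H3K27ac covered 21.7 and 22.8% of the Fosl1 window, 17.3 and 16.7% at Dusp6, 13.4 and 16.1% at Junb, 7.00 and 4.37% at Fos, 3.52 and 3.84% at Fosl2, and 2.54 and 2.40% at Jun. Neighbours in this order did not overlap between libraries. By number of peaks, Fos and Fosl2 met at 13 and could not be ordered. Tags inside H3K27ac peaks came to 65.7 ± 4.39 per 1000000 kept tags at Fosl1 (mean ± SD, n = 2, as in the values that follow), 49.4 ± 0.65 at Dusp6, 42.7 ± 5.61 at Junb, 15.7 ± 4.22 at Fos, 12.2 ± 1.28 at Fosl2 and 7.43 ± 0.32 at Jun. On that scale Fos (18.7 and 12.7) and Fosl2 (11.3 and 13.1) overlapped, and Dusp6 and Junb did not.

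**Figure D1:**
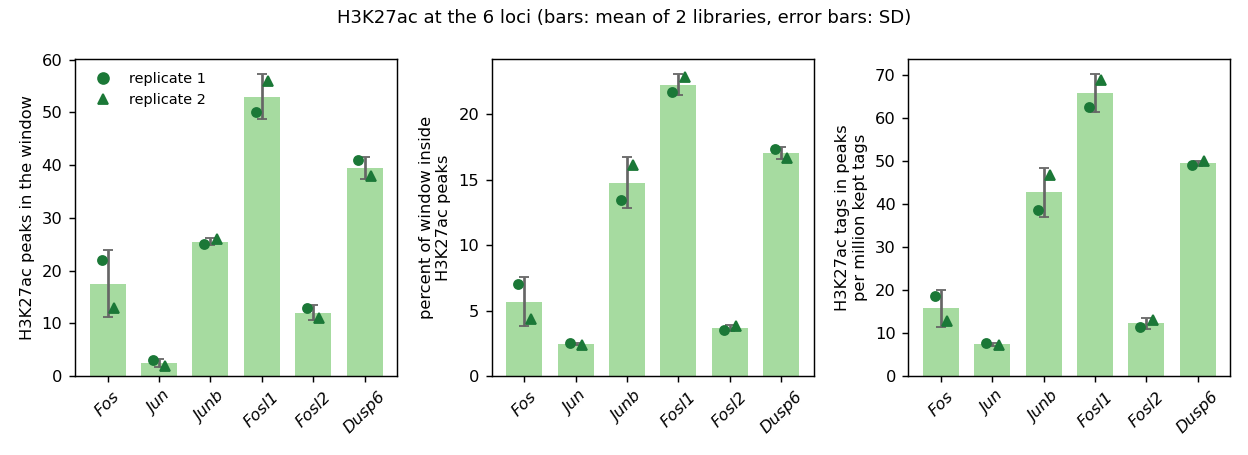
H3K27ac at the 6 loci by 3 measures: number of peaks in the window (left), percent of the window inside peaks (middle) and tags in peaks per 1000000 kept tags (right). Circles are replicate 1 and triangles replicate 2, bars are the mean of both and error bars the SD. Fosl1, Dusp6 and Junb stand above Fos, Fosl2 and Jun in each panel.

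Near the genes the order changed. Over the span or up to 5 kb from it, H3K27ac tags in peaks per 1000000 kept tags were 22.8 and 25.7 at Junb, 21.7 and 24.6 at Fosl1, and 19.7 and 23.8 at Dusp6, and these 3 overlapped. Fosl2 had 8.53 and 9.75 and Jun 7.66 and 7.20. Fos had the least, with 4.85 and 1.49, although its window as a whole held more than that of Jun. Spans differ from 3.001 kb (Junb) to 23.001 kb (Fosl2), so these sums are not per length. Jun had no acetylated peak beyond 5 kb in either library, and 84.5 and 81.9% of its H3K27ac tags lay over the span. At Fos only 10.1 and 3.71% did, and 47.6 and 56.5% lay 20 to 50 kb away. Dusp6 had 42.7 and 41.4% of its tags at 5 to 20 kb, the highest share in that distance class among the 6 loci in both libraries.

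**Figure D2:**
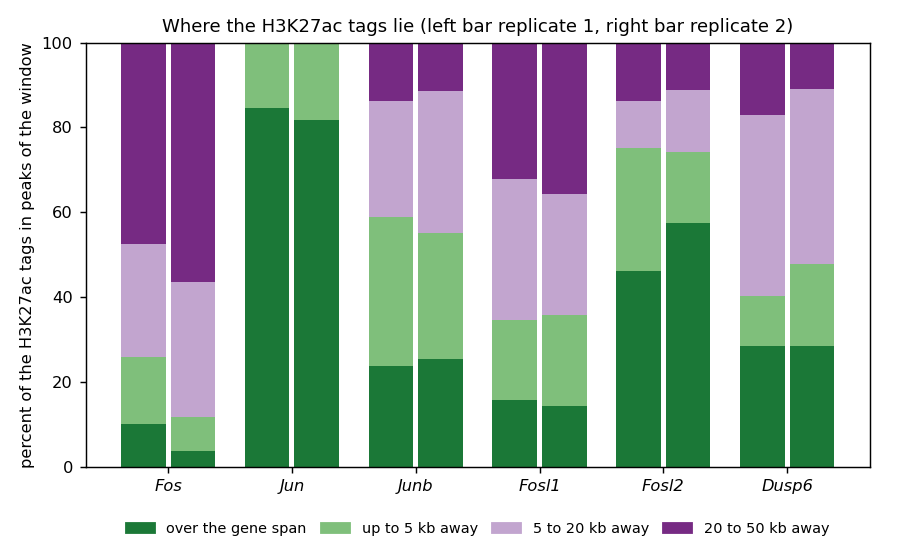
Share of the H3K27ac tags in peaks of each window by distance of the peak from the gene span, in percent, with the left bar of each pair for replicate 1 and the right bar for replicate 2. Jun is taken up by the 2 nearest classes, and Fos has the tallest part at 20 to 50 kb, 47.6 and 56.5%.

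Fos, the immediate early FOS gene, had little acetylation over its span and strong acetylation far from it. The consensus region over the span, chr12:86814567-86814763, was 197 bp long with 15 and 21 tags and folds of 6.99 and 8.57 (7.78 ± 1.12). Of all H3K27ac consensus regions, 69.3% had at least that mean fold. The highest at this locus was chr12:86862837-86863585, 43.8 kb above the span, with 103 and 98 tags and folds of 14.0 and 17.0 (15.5 ± 2.15), reached by 0.592% of consensus regions. A second one, chosen for naming after its values were seen, lay 8.16 kb above the span at chr12:86827159-86827785, with folds of 12.2 and 16.3, reached by 1.51%. Both libraries agreed less at Fos than elsewhere: 6 of 22 peaks (27.3%) in replicate 1 and 7 of 13 (53.8%) in replicate 2 met a peak of the other library, where all H3K27ac peaks of the lists gave 64.0 and 59.6%. Over the other 5 loci that share ran from 63.6 to 100%.

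Fosl1, which encodes the FOS-related subunit FRA-1, had 7 consensus regions over its span, from 253 to 1484 bp long with mean folds of 6.99 to 9.65. In coordinates they were chr19:5446946-5447531, 5447540-5448139, 5448151-5449634, 5450442-5451067, 5453667-5453919, 5454490-5454787 and 5455373-5456244. The first of them had the highest mean fold, from 8.94 and 10.4, and chr19:5448151-5449634 the most tags, 153 and 154. None stood out: between 27.8 and 84.4% of all consensus regions had at least as high a mean fold. The locus maximum lay outside the gene at chr19:5490399-5492332, 34.4 kb above the span, with folds of 11.4 and 16.0 (13.7 ± 3.30) and 245 and 285 tags. Its strongest summits in the 2 libraries were 1226 bp apart, so they are not the same point.

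Fosl2, which encodes FRA-2, had its acetylation gathered at the lower end of the span, the start side. Its highest consensus region, chr5:32437083-32437369, ended 0.631 kb below the span, with folds of 11.4 and 11.1 (11.2 ± 0.16) and 37 and 22 tags. Over the span, chr5:32438222-32439724 had folds of 11.9 and 9.10 with 193 and 215 tags, and chr5:32439994-32440794 had 7.50 and 8.72 with 45 and 84 tags. Of its 7 consensus regions, 5 lay over the span or within 5 kb. The rest of the 23.001 kb span had no consensus region.

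Jun, the gene of the founding JUN subunit, had 2 consensus regions in its whole window. The broader, chr4:94716658-94718901, was 2244 bp long and lay over the span with 295 and 262 tags and folds of 12.4 and 7.63 (10.0 ± 3.39). Replicate 1 split it into 2 peaks and the strongest summits were 929 bp apart, so its 2 folds describe different points. The other, chr4:94719373-94719917, began 0.373 kb above the span, on the start side, with folds of 10.5 and 12.9 (11.7 ± 1.68) and 54 and 58 tags. It had the highest mean fold at Jun, and 8.42% of consensus regions reached it.

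Junb, whose protein often opposes JUN, lay in a nearly unbroken run of acetylation. Its highest consensus region, chr8:87504240-87507328, began 1.24 kb above the span, on the start side, was 3089 bp long and had folds of 12.0 and 12.8 (12.4 ± 0.59) with 375 and 418 tags. It joined 5 peaks of replicate 1 and 2 of replicate 2 whose strongest summits were 2533 bp apart, so its 2 folds describe different points. Over the span were chr8:87499515-87500182 (folds 10.0 and 13.6), chr8:87500189-87502735 (12.1 and 11.7, with 269 and 296 tags) and chr8:87502851-87504026 (11.0 and 10.2). These 3 were separated from each other by short gaps, and their mean folds were reached by 7.37, 7.12 and 16.0% of all consensus regions. In replicate 1, 23 of 25 peaks at Junb were shared (92.0%), and in replicate 2, 23 of 26 (88.5%).

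Dusp6 had the strongest acetylated peak over a gene span among the 6. Its region chr10:98725893-98728084 was 2192 bp long, held 359 and 425 tags and had folds of 15.1 and 14.7 (14.9 ± 0.30), and 0.906% of consensus regions had at least that mean fold. The authors' score of that peak, −10 times log10 of their p, was 1539.68 and 2121.14. Only 78 of 70427 peaks in replicate 1 and 35 of 74680 in replicate 2 scored as high. Its FDR in the lists was 7.69 and 17.1% all the same, so this region is lost when an FDR of at most 1% is asked for. Such values were rare in the lists, where 1.13 and 0.798% of all H3K27ac peaks were above 1%. Of the member H3K27ac peaks, 3 of 154 and 3 of 146 were above it. These lay among strong peaks. They also included peaks of the broadest region over the Junb span (2.04%) and of the highest Fosl1 region (2.17%). Another lay at the lower flank of Dusp6 (1.68%). The flanking regions over the span were chr10:98723047-98725086, with folds of 8.39 and 11.2 and 256 and 291 tags, and chr10:98728196-98730302, with folds of 10.8 and 9.44 and 222 and 229 tags. Ranked by the highest fold in the window, Fos came first, Fosl1 next and Dusp6 after it. Their folds overlapped between libraries (14.0 to 17.0, 14.1 to 16.0 and 14.7 to 15.1), so these 3 could not be ordered. By the tags of the peak with the most tags, Dusp6 came first, with 8.72 ± 1.20 per 1000000 kept tags. Fos (3.01 and 3.08) and Fosl2 (1.86 and 4.84) had the lowest means and overlapped, so they could not be ordered.

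**Figure D3:**
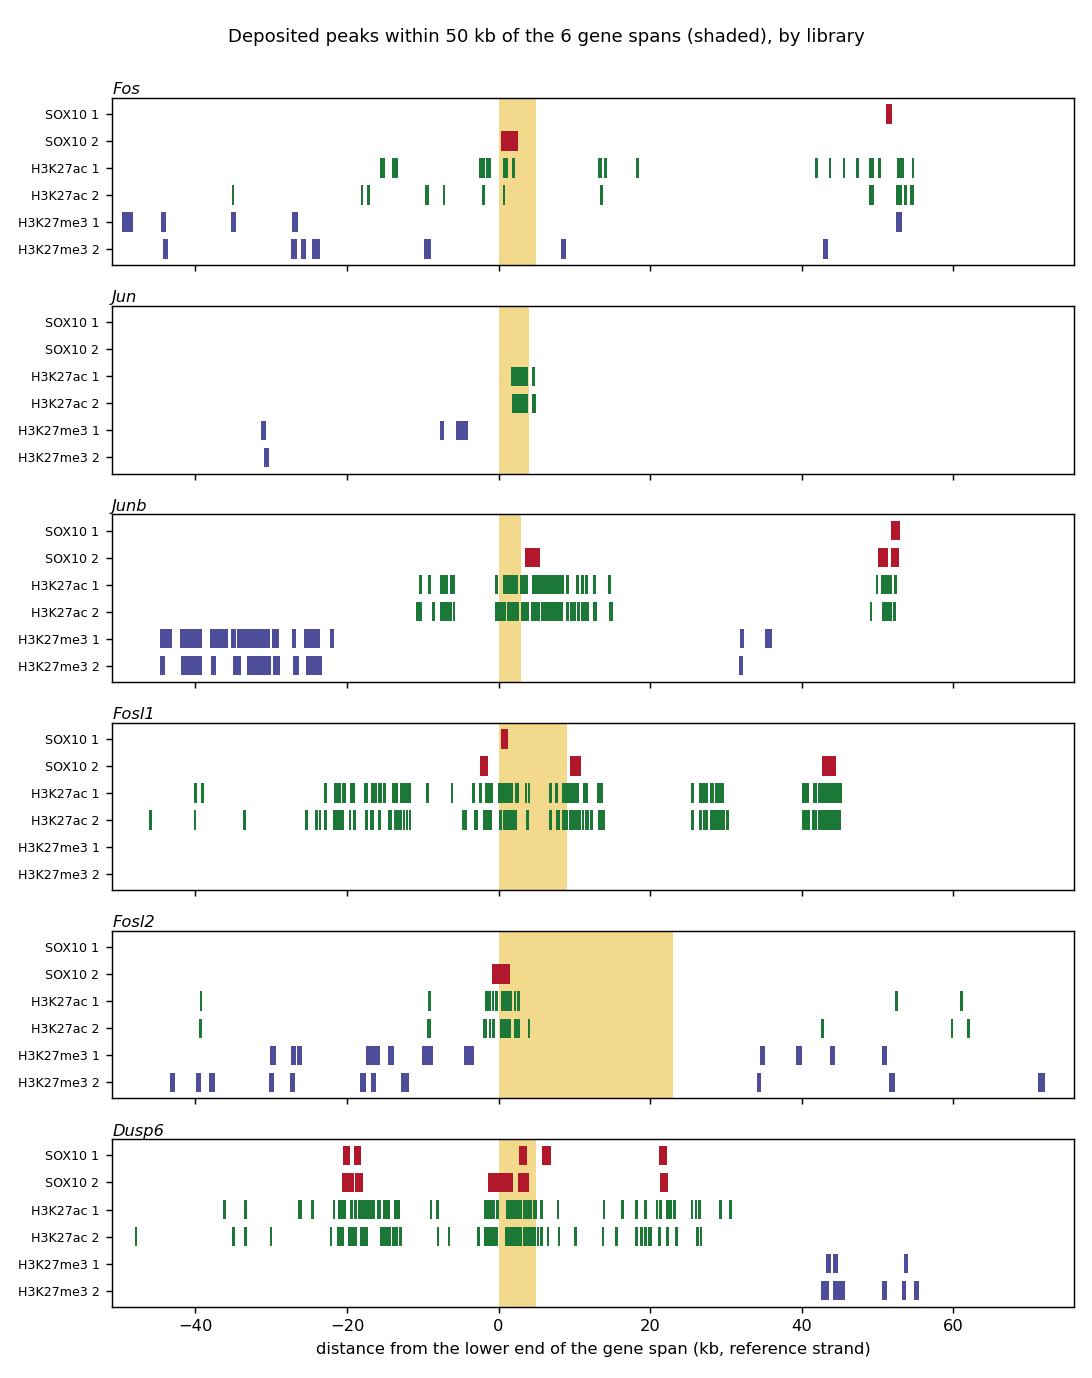
Every deposited peak within 50 kb of the 6 gene spans, with 1 row per library and distance in kb from the lower end of the span. Shading marks the gene span, and peaks under 0.35 kb are drawn 0.35 kb long so that they can be seen. Jun has 3 and 2 H3K27ac peaks, Fosl1 has 50 and 56 and no H3K27me3 peak, and SOX10 peaks of both libraries overlap only at Dusp6 and Junb.

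SOX10 peaks of both libraries overlapped at Dusp6 and Junb only. Of the 4159 SOX10 consensus regions, 4 lay at Dusp6 and 1 at Junb, and none at Fos, Fosl1, Fosl2 or Jun. In the lists, 5 of 8 member peaks of replicate 1 (62.5%) and 5 of 13 of replicate 2 (38.5%) met a peak of the other library, against 65.4 and 43.6% of all SOX10 peaks. Of 25100 tiles of the Dusp6 window's length, 51 (0.203%) held 4 or more SOX10 consensus regions, as Dusp6 did, and 87.1% held none. Of the tiles of the Junb window's length, 12.8% held 1 or more, as Junb did.

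At Dusp6 the SOX10 regions lay upstream of, within and downstream of the gene. Farthest upstream was chr10:98704393-98705941, 19.1 kb below the span, with 28 and 42 tags and folds of 18.4 and 9.50 (13.9 ± 6.26). Next to it, 17.9 kb below the span, chr10:98705970-98707080 had 36 and 55 tags and folds of 17.2 and 26.4 (21.8 ± 6.46). These 2 are neighbours that merge if regions less than 1 kb apart are joined, so that 3 separate places remain. Within the span, chr10:98727594-98729046 had 26 and 71 tags and folds of 10.5 and 14.8 (12.7 ± 2.99). Downstream, 16.2 kb above the span, chr10:98746192-98747402 had 58 and 68 tags and folds of 19.8 and 19.0 (19.4 ± 0.55), the closest agreement of the 4. Summits of the 2 libraries were 58, 80, 11 and 8 bp apart in this order. Within the gene the score of replicate 1 was 72.75, so this region is lost when a score of 100 is asked for. The downstream region is lost when an FDR of at most 1% is asked for, since its FDR in replicate 1 was 1.45%, although its score there, 267.97, was the highest SOX10 score of replicate 1 at the 6 loci.

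The Junb region, chr8:87551809-87552928, lay 48.8 kb above the span, close to the edge of the window. It had 26 and 43 tags and folds of 19.0 and 24.8 (21.9 ± 4.08), and its summits were 5 bp apart. By mean fold, it was reached by 7.07% of SOX10 consensus regions, and the 4 at Dusp6 by 30.7, 7.21, 38.3 and 10.8% in the order above. Within 20 kb of its span Junb had 0 SOX10 consensus regions. By the RefSeq annotation 8 other protein-coding genes lie within 50 kb of Junb, and which gene the Junb region belongs to was not tested.

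**Figure D4:**
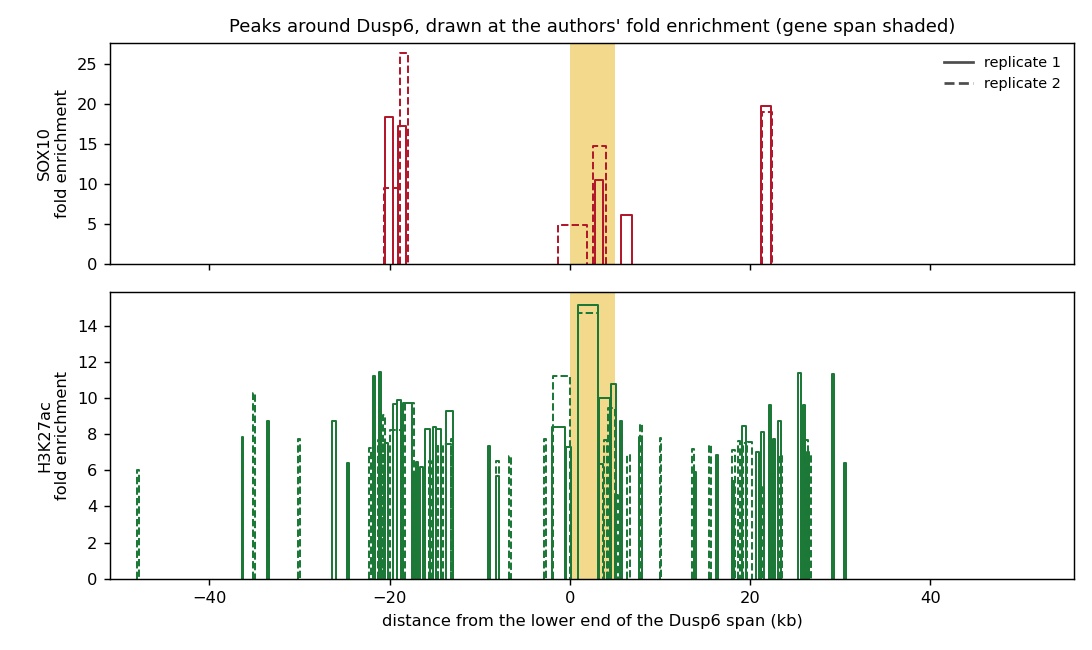
SOX10 peaks (top) and H3K27ac peaks (bottom) around Dusp6, each drawn as a box from its start to its end with the authors' fold enrichment as its height, against distance in kb from the lower end of the span (shaded). Solid lines are replicate 1 and dashed lines replicate 2. SOX10 boxes of both libraries coincide at 4 places, 2 of them adjacent, and the tallest H3K27ac box lies over the gene at 15.1 and 14.7.

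All 5 SOX10 consensus regions overlapped an H3K27ac consensus region (100%, with a 95% exact binomial interval of 47.8 to 100% for counting error only), against 53.2% of all SOX10 consensus regions. That interval takes the 5 regions as independent, although 4 lie at Dusp6 and 2 of these are neighbours. At 3 of the 5 the SOX10 summit itself lay inside the acetylated consensus region: at Junb, at the second upstream Dusp6 region and within Dusp6. The second upstream one was inside an H3K27ac peak of replicate 1 but not of replicate 2, which leaves 2 of 5 by replicate 2. That summit, 98706482, lay close to the start of its region at 98706479. Within Dusp6 the summit, 98728239, was the first base of the H3K27ac peak of replicate 2, in a region beginning at 98728196. Summits of the 2 SOX10 libraries were 80 and 11 bp apart at these 2 regions. Inside and outside are thus not sharply told apart there. At the other 2 of the 5 the SOX10 summit fell in a gap. The farthest upstream summit had H3K27ac regions ending 151 bp below and beginning 66 bp above it, and the downstream summit had them 296 and 258 bp away. Seen from the mark, 9 of the 79 H3K27ac regions met SOX10 (11.4%, against 9.66% of all), 7 of 20 at Dusp6 and 2 of 15 at Junb. None of the 5 met an H3K27me3 consensus region, and 1.32% of all SOX10 consensus regions did.

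Other SOX10 peaks were listed in 1 library. Replicate 2 alone had 8, at Fosl1 (3), Junb (2), Fos, Fosl2 and Dusp6 (1 each), with folds of 4.33 to 9.50 (median 6.14), all at an H3K27ac consensus region and all with an FDR above 1%. Over the 5424 unshared peaks of that list the shares were 39.3 and 93.5%. The peaks over the spans of Fos (fold 6.15, 96 tags), Fosl2 (4.33, 132 tags) and Dusp6 (4.83, 151 tags), named here after their values were seen, were broad, with 2238, 2360 and 3261 bp. For these 8 peaks the caller's input background, recovered from tags, length and score, ran from 1.58 to 6.02 times the genome-wide level, with a median of 4.59. It was 1.90 (1.27 to 2.53) for the 5 shared peaks of the same library. Of the 8, 7 lay above 3.48, the 90th percentile of the unshared peaks of that list, whose median was 1.44. The exception, 1.44 kb below Fosl1 with a fold of 9.50 and a background of 1.58, lay within the range of the shared peaks. H3K27ac peaks at the same places were called against another input library, and their background was 1.09 to 1.94 times its genome-wide level. The part of the input background in these calls was not tested. In replicate 1 alone there were 3 SOX10 peaks, 46.2 kb above Fos (fold 13.5, 17 tags, background 1.27, with no H3K27ac), over Fosl1 (7.01) and 0.722 kb above Dusp6 (6.05).

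**Figure D5:**
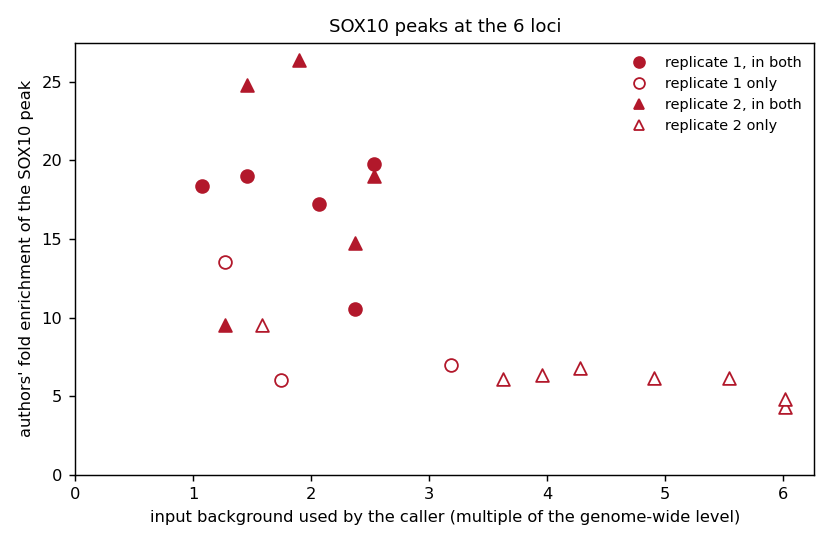
Each SOX10 peak at the 6 loci by the input background the caller used (horizontal, as a multiple of the genome-wide level) and the authors' fold enrichment (vertical). Circles are replicate 1 and triangles replicate 2, filled where the other library has an overlapping peak. Filled points stay at or below 2.53 on the horizontal axis, and open triangles reach 6.02 with folds of at most 9.50.

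H3K27me3 was listed away from the gene spans, with no peak of either library over any of the 6. There were 36 and 34 peaks and 19 consensus regions of 30517, with 9 at Junb, 4 at Fosl2, 3 at Dusp6, 2 at Fos, 1 at Jun and none at Fosl1. Of these peaks 55.6 and 55.9% met a peak of the other library, against 46.8 and 52.6% of all. The Junb window held the strongest: 8 of its 9 regions lay on the lower side, 23.2 to 43.1 kb from the span, summing to 16.5 kb with 1256 and 1067 tags. Other protein-coding genes lie within 50 kb of Junb, and which gene these regions belong to was not tested. As many as 9 regions were in 3.99% of tiles of the Junb window's length. The highest was chr8:87466694-87469973, 3280 bp long with 285 and 321 tags and folds of 7.65 and 7.87 (7.76 ± 0.16), reached by 3.74% of consensus regions. Next by mean fold came chr8:87458019-87460888 (6.78 and 6.99), chr8:87474301-87476757 (6.12 and 6.99), chr8:87470152-87471213 (4.81 and 7.21), chr8:87461880-87464241 (6.99 and 4.59) and chr8:87455276-87456884 (6.56 and 4.81). In the last 2 the tags fell apart between libraries, 202 against 43 and 113 against 36. The other 11 regions of the 6 loci had mean folds of 4.48 to 5.57 and lengths of 758 to 1806 bp, and the median fold over all H3K27me3 consensus regions was 5.25.

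Acetylated and trimethylated regions did not meet. None of the 79 H3K27ac consensus regions overlapped an H3K27me3 consensus region, which allows a share of up to 3.80% for counting error alone, against 1.94% of all H3K27ac regions, so the count is near the background. That limit takes the 79 regions as independent, although many are neighbours, and merging those less than 1 kb apart leaves 30. At Junb the nearest H3K27me3 region ended 23.2 kb below the span, and the farthest H3K27ac region on that side lay 10.3 kb below it. In 1 library only, H3K27me3 met an H3K27ac consensus region at 1 place in the Fos window, 47.4 kb above the span. The same held at 2 places in the Fosl2 window, 8.67 and 39.3 kb below the span.

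In all, 114 of 154 H3K27ac peaks of replicate 1 (74.0%) and 110 of 146 of replicate 2 (75.3%) met a peak of the other library, against 64.0 and 59.6% of the lists. Median folds of the member peaks were 8.29 and 7.67 for H3K27ac (7.97 and 7.71 in the lists), 5.03 in both libraries for H3K27me3 (4.81 and 5.03) and 15.4 and 6.80 for SOX10 (10.4 and 9.04). Member H3K27ac peaks had a median of 36.5 tags in both libraries, against 30 in the lists. The consensus regions nearest the 50 kb limit were these. Just inside it were an H3K27ac region 49.4 kb from Fos (folds 6.25 and 6.95), an H3K27me3 region 48.2 kb from Dusp6 (4.81 and 4.15) and the Junb SOX10 region. Just outside were an H3K27ac region 55.0 kb from Fosl1 (11.0 and 5.66) and an H3K27me3 region 57.3 kb from Fos (5.03 and 5.25). Between 50 and 60 kb lay 8 H3K27ac regions, and 1 of them, 56.9 kb from Junb (11.2 and 17.1), had a higher mean fold than any within the Junb window. The next SOX10 region was 68.5 kb from Jun (5.55 and 7.39).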

How the data were processed

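The data were 6 deposited ChIP-seq peak lists (SOX10, H3K27ac and H3K27me3 with 2 libraries each), grouped by the antibody and replicate number in the sample titles. The 2 inputs enter only as the background of the calls. The gene list, its windows and the motifs were chosen with earlier results of these data known. The 6 members were all named, and regions were named by rule: every SOX10 consensus region, per locus the H3K27ac region of highest mean fold and those over the span, and the 6 H3K27me3 regions of highest mean fold.

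The authors called peaks in each library with MACS 1.4.2 on mm9 (both per the submitters' processing notes) at a p cutoff of 1e-05 with 1 tag kept per position, per the file headers. No source used here names the aligner. Per the file headers, a local input background (1000 and 10000 bp) was used for SOX10 and H3K27ac but not for H3K27me3. The caller's distance d was 50 and 51 bp for H3K27ac, close to the tag length of 51 bp, so its peaks can be narrow or split. Each deposited list gives the count of tags per peak, −log10 of the p multiplied by 10 (cutoff 50), the fold enrichment at the summit as the authors' ratio to background, and the authors' FDR in percent. These values were used as the authors' own, to describe and rank peaks within a list.

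Peaks of both libraries sharing at least 1 bp were merged. The recovered input background is the Poisson mean that turns a peak's tags into its p. For H3K27me3 it was within 1% of the genome-wide level at 97.0% and 94.7% of 2000 sampled peaks. Promoters came from RefSeq (GRCm38.p6). Its other coordinates were used only to find the protein-coding genes within 50 kb of each member on the RefSeq build. Python 3.11.15 with numpy 2.4.6, pandas 2.3.3, scipy 1.17.1 and matplotlib 3.10.9 was used. Scripts were tested on simulated data. No test across libraries was made. Alternatives changed the distance, score, FDR, overlap, merging and the library left out.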

Additional observations from a re-analysis of the deposited data

How the results depend on the processing

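The 5 SOX10 consensus regions became 4 to 6 under each alternative that kept both libraries, and without replicate 1 or 2, where every peak of the remaining library counts, they became 13 and 8. All of the SOX10 regions overlapped H3K27ac under those alternatives except at a score of at least 100, with 3 of 4 (75.0%), and in replicate 1 alone, with 7 of 8 (87.5%, the range over single libraries being 87.5 to 100%). The 79 H3K27ac regions became 46 at a score of at least 100 and 30 when regions under 1 kb apart were merged, and 146 to 154 in single libraries. The share of H3K27ac peaks found in the other library, 74.7%, fell to 67.7% with an overlap of at least 50% of the shorter peak and to 64.7% with merging, and leaving out a library gives no value for it. The 19 H3K27me3 regions were the least stable: 2 within 20 kb, 31 within 100 kb, 5 at a score of at least 100, 6 at an FDR of at most 1%, and 34 to 36 in single libraries. An FDR filter kept 1 of the 9 Junb regions, a score filter 5. The FDR filter took out the strongest Junb regions. The highest, chr8:87466694-87469973, had peak scores of 814.75 and 1004.62 with FDRs of 5.81 and 6.79%. The region kept by the FDR filter, chr8:87531675-87532456, had scores of 73.44 and 70.11 with FDRs of 0.89 and 0.68%. The cause was not tested for any of these changes, beyond fewer or more peaks entering. Shifting the tiles by 50% of their length moved no H3K27ac tile share beyond its 95% binomial interval. The SOX10 and H3K27me3 tile shares were not set against such an interval. With depth-scaled tags in place of the fold, the rank of each of the 6 loci by its highest H3K27ac peak changed. No paired analysis was possible because these results come from no test across libraries.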
